A study of Homo sapiens with 3 samples.

Results

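Aminoacyl-tRNA synthetases are the enzymes that join each amino acid to its transfer RNA. A set of 35 genes for these enzymes was taken by name from a table of 60664 gene identifiers, and all 35 were found. They comprise 19 genes of the cytosolic enzymes and 16 genes of the mitochondrial enzymes, whose symbols end in 2. The genes were measured in wild-type Caco-2, an established line from a human colorectal tumour that stands in for gut epithelium in many studies. Control cells received no treatment. DSS cells received 3% dextran sulfate sodium (DSS), a sulfated polysaccharide used to provoke colitis in rodents, for 8 h. Polydatin plus DSS cells received 30 µM polydatin, a glucoside of resveratrol, for 2 h and then polydatin and DSS together for 8 h (DSS+polydatin in the plots). Each group had 1 RNA sequencing library, and none of the 3 received polydatin alone. The treatment, the culture and the library preparation of a group therefore cannot be told apart.

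Cells need a cytosolic and a mitochondrial set of synthetases, both encoded in the nucleus. The cytosolic set serves the bulk of protein synthesis, and several of its members, the bifunctional glutamyl-prolyl enzyme EPRS1 among them, sit in a large multi-synthetase complex held together by the scaffold proteins AIMP1, AIMP2 and EEF1E1. The mitochondrial set is imported into mitochondria, where it serves the few proteins of the mitochondrial genome. GARS1 and KARS1 encode both the cytosolic and the mitochondrial enzyme for glycine and lysine. When amino acids run short, uncharged transfer RNA activates the kinase GCN2 (gene EIF2AK4), translation of the transcription factor ATF4 rises, and ATF4 raises transcription of amino acid transporters, biosynthetic enzymes and part of the cytosolic synthetases. Intestinal epithelial cells make large amounts of protein and are renewed quickly.

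The control library held 18695613 counts, the DSS library 18825914 and the polydatin plus DSS library 16667622. Of these the 35 synthetase genes held 0.538%, 0.378% and 0.372%. Counts were scaled to counts per 1000000 (CPM), and a gene was measured where it reached 1 CPM in at least 1 library, which held for 34 synthetases and 14792 genes in all. Ratios are given with exact 95% intervals (Clopper-Pearson) that take in counting error alone. No test of the conditions was possible without replicates. A gene was counted as lower or higher where the ratio was at least 1.5-fold with an interval that excluded 1. Of the 10 epithelial marker genes examined, 8 or 9 reached 1 CPM in each library, while KRT20 had only 10, 9 and 8 counts and LGALS4 4, 10 and 25. Of 11 markers of fibroblasts, leukocytes, endothelium and neurons 5 reached 1 CPM, and all summed to between 62.6 and 76.2 CPM, with PTPRC and SNAP25 among those at 0 counts in all 3 libraries. The endothelial marker PECAM1 had 24.4 CPM in control, 16.0 in DSS and 9.52 in polydatin plus DSS, and the fibroblast and pericyte marker PDGFRB 138, 74 and 93 counts. The fibroblast marker COL1A1 was higher in level and nearly even, at 39.7, 37.8 and 43.3 CPM. COL3A1, another fibroblast marker, had 35, 35 and 27 counts. Of 9 measured epithelial markers 8 were above control in DSS, where 50.5% of all measured genes were below control. With polydatin 3 were above and 6 below, both against DSS and against control. Of all measured genes 51.6% and 51.4% were below in these 2 comparisons. The lowest marker with polydatin was the epithelial factor gene CDX2, at 0.665 times DSS and at 0.533 times control. CDH1 and CDH17 were at 1.26 and 1.48 times control with polydatin. The part of these markers in the results was not tested. Fewer cells of a type and less RNA per cell cannot be told apart in such bulk RNA.

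The mitochondrial valine and serine enzymes could hardly be followed. VARS2 had 10 counts in control, 9 in DSS and 10 in polydatin plus DSS, and was the synthetase that did not reach 1 CPM. SARS2 had 45, 37 and 49 counts. In the annotation 46.2% of the exon bases of SARS2 lie inside a same-strand transcript unit, and 22.0% of those of VARS2 inside GTF2H4, which itself had 1, 2 and 1 counts. EEF1G, an elongation factor gene that every cell uses, was at 0 counts in all 3 libraries with 99.9% of its exon bases inside another same-strand gene. The part of such overlaps in the low counts was not tested.

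Per kilobase of exon, the cytosolic enzymes were more abundant than the mitochondrial ones. The median level over the 19 cytosolic genes was 51.4 CPM per kilobase in control, 30.5 in DSS and 26.3 in polydatin plus DSS. Over the 16 mitochondrial genes it was 8.96, 8.56 and 6.02. The highest levels in control were those of EPRS1 at 90.1 CPM per kilobase, the alanine enzyme AARS1 at 88.0 and the glycine enzyme GARS1 at 83.4. In DSS the order at the top was instead the arginine enzyme RARS1 at 58.6, the mitochondrial isoleucine enzyme IARS2 at 58.5 and EPRS1 at 58.0, levels that lie within counting error of each other. In polydatin plus DSS, AARS1 stood first at 71.1. IARS2 alone held 34.6% of the counts of the mitochondrial set in control, 32.2% in DSS and 28.9% in polydatin plus DSS. The cysteine enzyme CARS1 was the least abundant cytosolic member in each library, at 10.2, 5.61 and 6.94 CPM per kilobase. These levels rest on all annotated exons of a gene, so that long unused exons lower them.

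**Figure D1:**
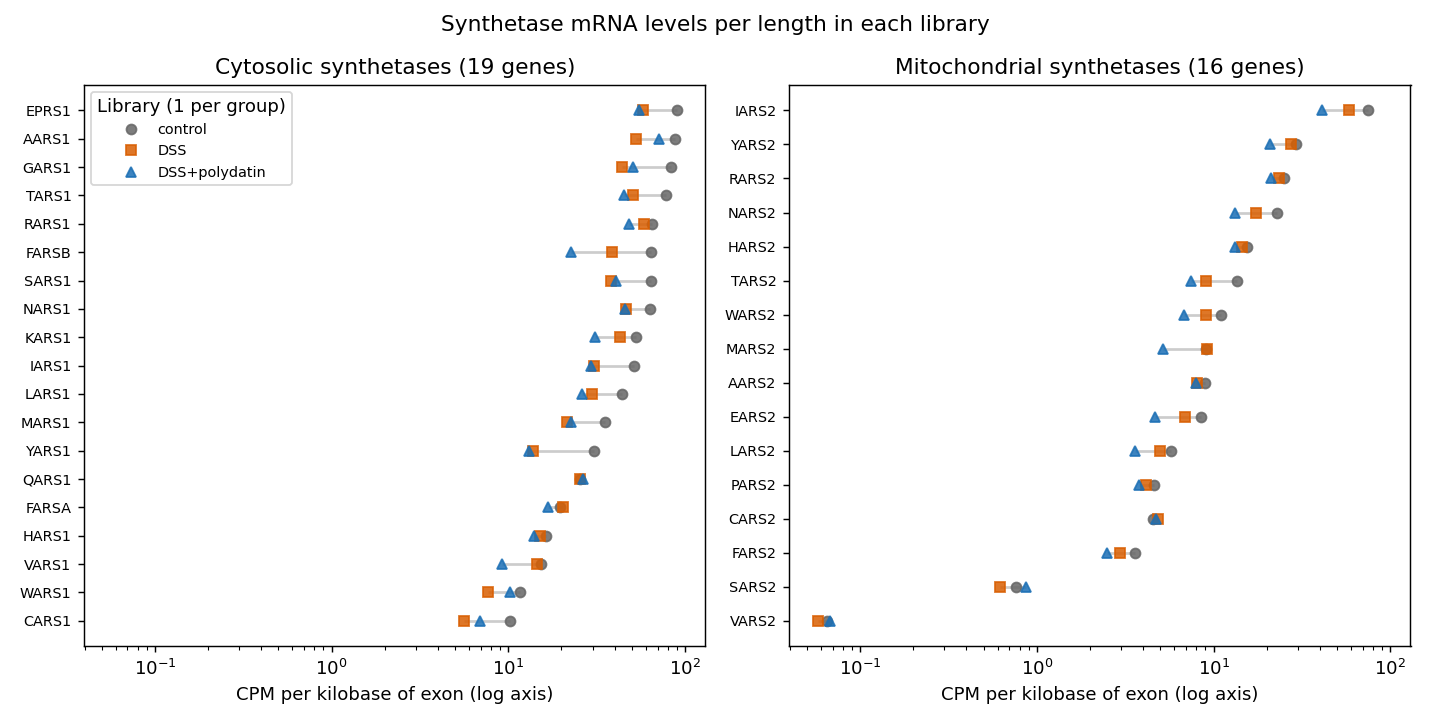
Levels of the 19 cytosolic and 16 mitochondrial synthetase genes in CPM per kilobase of exon on a log axis, with 1 point for each library and genes ordered by the control level. For most cytosolic genes the control point lies to the right of the other two, while for many mitochondrial genes the 3 points step down from control to DSS to polydatin plus DSS.

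DSS against control asks how the cells responded to DSS. Cytosolic synthetase mRNAs were lower in DSS. Of 19 cytosolic genes, 11 were at least 1.5-fold lower and none was higher by as much, whereas over all measured genes 5.81% were lower and 9.45% higher. The median log2 ratio was −0.62 for the cytosolic genes and −0.01 for all measured genes. The interval lay below 1 for 16 of the 19. For this and later counts of intervals, the share over all measured genes was not computed. At high counts an interval can exclude 1 at a small difference, as for the histidine enzyme HARS1 at 0.930 times control (0.877 to 0.986). By a stricter 2-fold rule 1 synthetase, YARS1, was lower, against 1.76% of all measured genes. Among genes of at least 10 CPM, the abundance range of these enzymes, 4.34% were lower.

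The tyrosine enzyme YARS1 (chromosome 1, 32775237 to 32818153, GRCh38) was the synthetase farthest from control in DSS. It had 4543 counts in control, 2098 in DSS and 1875 in polydatin plus DSS, and DSS stood at 0.453 times control (0.430 to 0.477). GARS1 (chromosome 7, 30594681 to 30634033) had 6285, 3371 and 3682 counts in the same order, and its DSS level was 0.526 times control (0.504 to 0.548). CARS1 (chromosome 11, 3000922 to 3057613) had 1860, 1043 and 1215 counts and stood at 0.550 times control (0.509 to 0.593). In each of these genes both treated libraries were far below the control library. The serine enzyme SARS1 had 4464, 2695 and 2720 counts, a DSS level of 0.592 times control (0.564 to 0.621). AARS1 had 7189, 4429 and 5574 counts, a DSS level of 0.604 times control (0.581 to 0.627). The isoleucine enzyme IARS1 had 6901, 4186 and 3787 counts, a DSS level of 0.595 times control (0.572 to 0.618). The control library was again the highest for these 3, and with polydatin AARS1 lay well above its DSS level, SARS1 close to it and IARS1 slightly below. The methionine enzyme MARS1 had 4493, 2791 and 2764 counts and was at 0.609 times control (0.581 to 0.638). The tryptophan enzyme WARS1, which is also known to be induced by interferon gamma, had 1354, 900 and 1133 counts and was at 0.651 times control (0.598 to 0.709). MARS1 shares 355 exon bases with DDIT3 on the opposite strand, and with the strand setting not given their reads cannot be separated there. DDIT3, a stress-induced transcription factor gene, had only 298, 247 and 336 counts.

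EPRS1 had 8919 counts in control, 5857 in DSS and 5239 in polydatin plus DSS, and the threonine enzyme TARS1 had 8142, 5418 and 4498. Their DSS levels were 0.644 (0.623 to 0.665) and 0.652 times control (0.630 to 0.675), close to the 1.5-fold limit. Once a trend on GC content and exon length was taken out, these 2 genes no longer passed 1.5-fold and the other 9 did. The leucine enzyme LARS1, with 6452, 4462 and 3681 counts, was at 0.678 times control (0.652 to 0.704), just short of the limit. The asparagine enzyme NARS1 was at 0.734 times (0.703 to 0.767). These 12 genes, from YARS1 to NARS1, are those commonly described as ATF4 targets. All 12 had intervals below 1, and 10 of the 12 were at least 1.5-fold lower, against 5.81% of all measured genes. The list of 12 was chosen with earlier results of these data known, so it is not independent of these values.

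The 7 other cytosolic enzymes were mostly nearer control in DSS. Only FARSB among them was lower by 1.5-fold, and the median log2 ratio of the 7 was −0.10, against −0.72 for the 12. The glutamine enzyme QARS1 had 2176 counts in control, 2231 in DSS and 2157 in polydatin plus DSS, and its interval against control (0.947 to 1.07) spanned 1. For the valine enzyme VARS1 the ratio was 0.947 (0.885 to 1.01), for the histidine enzyme HARS1 0.930 (0.877 to 0.986), for RARS1 0.905 (0.865 to 0.947) and for KARS1 0.805 (0.768 to 0.843). The difference between the sets of 12 and 7 was described by these values and not tested.

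Phenylalanine is charged in the cytosol by an enzyme built from equal numbers of FARSA and FARSB subunits, and the 2 subunit mRNAs separated. FARSB (chromosome 2, 222570536 to 222656337) had 3952 counts in control, 2396 in DSS and 1326 in polydatin plus DSS, stepping down through the 3 libraries. FARSA (chromosome 19, 12922479 to 12934037) had 867, 918 and 708 counts, a DSS level of 1.04 times control (0.945 to 1.14). Within a library, where no scaling enters, there were 4.56 FARSB counts for each FARSA count in control (4.23 to 4.91), 2.61 in DSS (2.42 to 2.82) and 1.87 in polydatin plus DSS (1.71 to 2.05), 3 intervals that do not overlap.

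**Figure D2:**
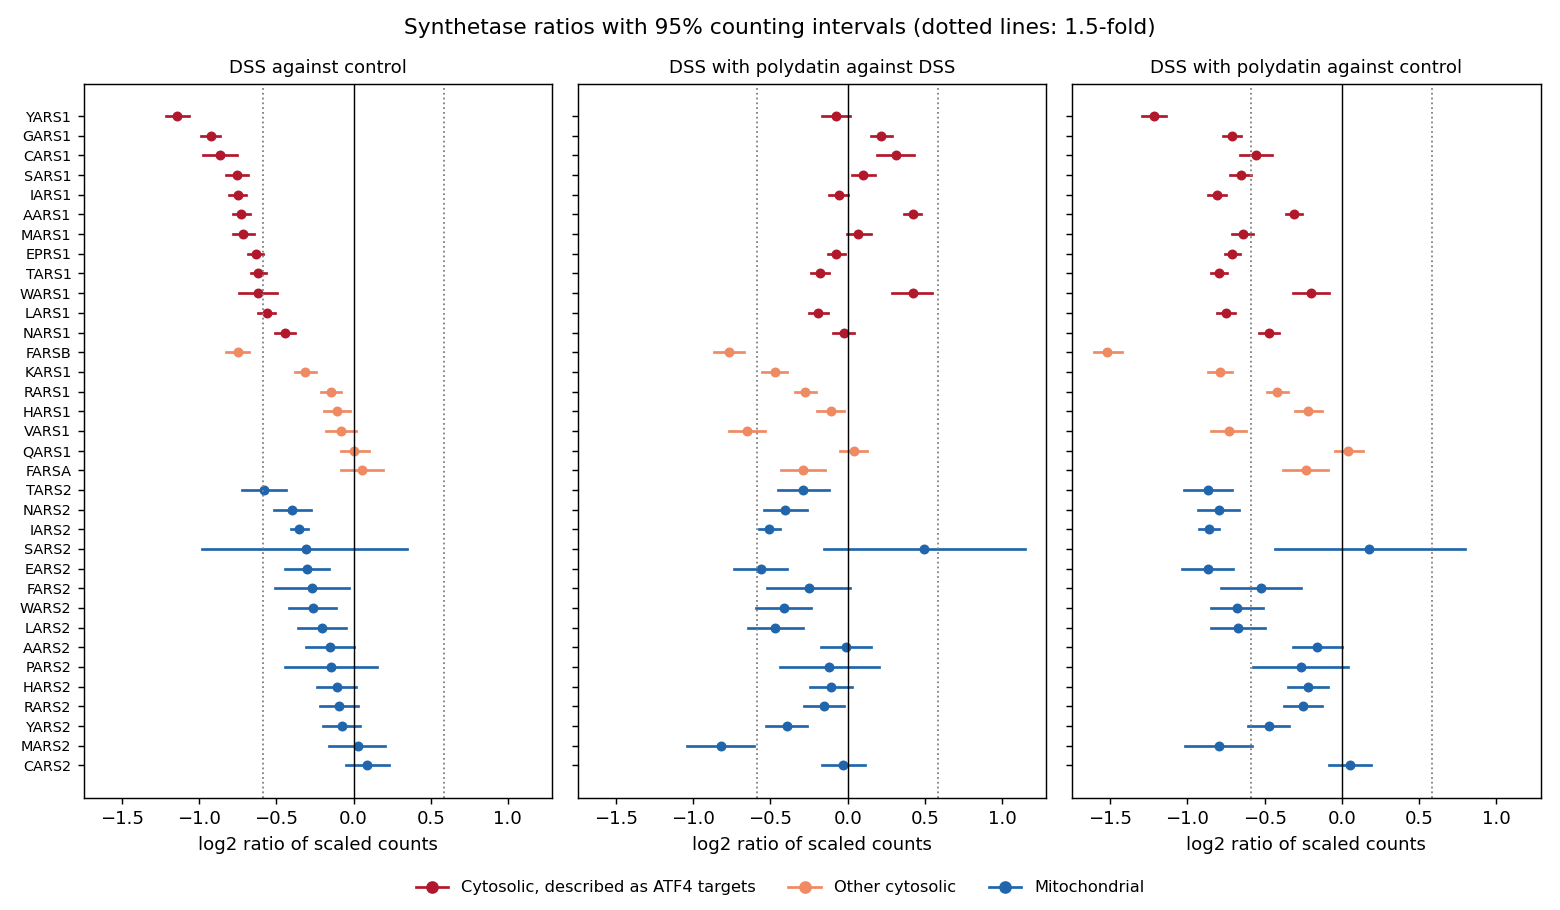
Ratios of scaled counts on the log2 scale for the 34 measured synthetases in the 3 comparisons, with lines for 95% counting intervals and dotted lines at 1.5-fold. In the first panel the cytosolic genes described as ATF4 targets all lie left of 0, down to −1.14 for YARS1, and in the second panel 5 of these 12 have intervals right of 0 while most mitochondrial genes lie left of it.

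Promoter windows are shown for the cytosolic genes with a match, because cytosolic genes were lower in DSS, and for the 1 mitochondrial gene with a match, YARS2. ATF4 binds with partner proteins to a composite element whose core can be written TGATGNAA. Promoters from 250 bases before to 50 bases after each RefSeq gene start, from RefSeq on GRCh38.p14, were searched for these letters on both strands (TTNCATCA on the other). Of the 35 genes, 30 had an entry. LARS1, VARS1, YARS1, AARS2 and VARS2 had none. The letters occurred for 7 of 16 cytosolic genes (43.8%) and 1 of 14 mitochondrial genes (7.14%), against 4.46% of all genes in the table and 3.62% of its 35116 promoters. All 7 cytosolic genes were among the 10 ATF4-described genes with an entry, and none of the 6 other cytosolic genes had a match. Since those 12 genes are described as ATF4 targets partly through such elements, the match is not independent of the list. In 6 of the 7 the match was TGATGCAA or its reverse complement. The windows below run 5′ to 3′ on the strand of the gene, with the match in capitals.
AARS1: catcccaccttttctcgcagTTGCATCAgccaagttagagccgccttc
IARS1: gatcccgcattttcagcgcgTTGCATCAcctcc
MARS1: aagcgggaggccggttccggTTGCATCA
CARS1: cgcgacttccggggcggcggTTGCATCA
NARS1: agatctacgctctcTGATGCAA
TARS1: gaTTGCATCA
GARS1: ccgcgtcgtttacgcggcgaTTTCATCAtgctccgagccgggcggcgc
YARS2: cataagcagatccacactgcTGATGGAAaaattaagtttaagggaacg

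The windows are chr16:70289666-70289713 on the minus strand for AARS1, chr9:92293698-92293730 on the minus strand for IARS1 and chr12:57488044-57488071 on the plus strand for MARS1. They are chr11:3057418-3057445 on the minus strand for CARS1, chr18:57621815-57621836 on the minus strand for NARS1 and chr5:33440965-33440974 on the plus strand for TARS1. For GARS1 the window is chr7:30594825-30594872 on the plus strand, and for YARS2 chr12:32756067-32756114 on the minus strand. The match begins 187 bases before the start in AARS1, 33 in GARS1, 13 in IARS1, 4 in MARS1 and 2 in CARS1. In TARS1 it begins at base 3 and in NARS1 at base 15 after the start, and in YARS2 it begins 197 bases before. A match is a run of letters and no evidence of binding, and SARS1, WARS1 and EPRS1, which were also lower in DSS, had none in this window.

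Mitochondrial synthetase mRNAs differed less from control in DSS. Of the 15 measured, none was at least 1.5-fold lower or higher, where 5.81% and 9.45% of all measured genes were. The median log2 ratio of the 15 was −0.21, and 7 had intervals below 1. The threonine enzyme TARS2 had 1006 counts in control, 687 in DSS and 530 in polydatin plus DSS, and at 0.669 times control (0.607 to 0.738) was the lowest. It passed 1.5-fold with size factors from DESeq2 and after removal of the trend on GC content and length. The asparagine enzyme NARS2 had 1314, 1019 and 725 counts, a DSS level of 0.760 times control (0.700 to 0.825). IARS2 (chromosome 1, 220094102 to 220148041) had 5646, 4515 and 2988 counts, a DSS level of 0.784 times control (0.754 to 0.815). At the other end, the cysteine enzyme CARS2 had 863, 935 and 862 counts, a DSS level of 1.06 times control (0.967 to 1.17). The methionine enzyme MARS2 had 494, 512 and 273 counts, and its DSS level of 1.02 times control (0.896 to 1.15) was also within counting error. The phenylalanine enzyme FARS2 at 0.830 times control (0.702 to 0.981), the proline enzyme PARS2 at 0.905 times (0.735 to 1.11) and the arginine enzyme RARS2 at 0.936 times (0.861 to 1.02) lay between these ends.

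Pairs of enzymes for the same amino acid made the contrast direct. In 15 pairs with a measured mitochondrial enzyme (FARSA and FARSB summed against FARS2), the log2 ratio of DSS to control was lower for the cytosolic enzyme in 14, and in the histidine pair the difference rounded to 0.00. The intervals of the 2 enzymes were apart in 9 of the 15, each time with the cytosolic enzyme lower. The median difference was −0.36. It was widest for tyrosine, at −1.07 between YARS1 and YARS2, then for cysteine at −0.95 and methionine at −0.74. Asparagine and arginine at −0.05 and threonine at −0.04 were nearly level, for the asparagine and threonine pairs with both enzymes lower in DSS. EPRS1 enters 2 of the pairs, against EARS2 and PARS2, so these are not separate observations.

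HARS1 and HARS2 lie head to head on chromosome 5 and share 437 exon bases on opposite strands. HARS1 had 2322 counts in control, 2203 in DSS and 1919 in polydatin plus DSS, and HARS2 had 1051, 995 and 868. There were 2.21 HARS1 counts for each HARS2 count in each of the 3 libraries, with intervals from 2.05 to 2.38 in control, 2.05 to 2.39 in DSS and 2.04 to 2.40 in polydatin plus DSS.

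Polydatin plus DSS against DSS addresses whether polydatin alters the response of the cells to DSS. This comparison uses the same DSS library as the one above, so any peculiarity of that library enters both with opposite sign, and the values are set side by side only. The 12 cytosolic synthetases described as ATF4 targets ranged from 0.877 to 1.34 times DSS, with as many above DSS as below. Of the 7 other cytosolic members 6 were below DSS, and of the 15 mitochondrial enzymes 14, as were 51.6% of all measured genes. With total-count scaling AARS2 and CARS2 turned to above DSS. In all, 3 of 34 measured synthetases were at least 1.5-fold lower and none was higher by as much, and by the 2-fold rule 0 were lower (0.460% of all measured genes). Over all measured genes 2.60% were lower and 5.39% higher. By a looser rule with a ratio of 5 to 4, 10 were lower and 2 higher, against 10.5% and 11.3% of all measured genes. The median log2 ratio of the cytosolic genes was −0.07 and turned to 0.01 with total-count scaling, and that of the mitochondrial genes was −0.29.

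Among the 12 ATF4-described genes the median log2 ratio was 0.02, and 5 had intervals above 1 and 3 below. AARS1 was found at 1.34 times DSS (1.29 to 1.39), and so was WARS1 (1.22 to 1.46). CARS1 was at 1.24 times (1.14 to 1.35), GARS1 at 1.16 times (1.11 to 1.22) and SARS1 at 1.07 times (1.02 to 1.13). Each of these 5 remained below its control level in the polydatin plus DSS library, nearest for WARS1 at 0.871 times control (0.805 to 0.944) and AARS1 at 0.807 times (0.780 to 0.836). YARS1, the lowest in DSS, was at 0.950 times DSS (0.892 to 1.01). The 3 with intervals below 1 were EPRS1 at 0.950 times (0.915 to 0.987), LARS1 at 0.877 times (0.839 to 0.916) and TARS1 at 0.882 times (0.848 to 0.918). With total-count scaling the sign of the small differences of YARS1, EPRS1, IARS1 and NARS1 turned.

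The other cytosolic genes had a median log2 ratio of −0.29 with polydatin. FARSB was at 0.588 times DSS (0.549 to 0.629). VARS1 (chromosome 6, 31777518 to 31795953) had 1699 counts in control, 1642 in DSS and 983 in polydatin plus DSS, and at 0.636 times DSS (0.587 to 0.689) was the other cytosolic member past 1.5-fold. With total-count scaling VARS1 no longer passed. KARS1, with 3921, 3219 and 2181 counts, was at 0.720 times DSS (0.681 to 0.760), FARSA at 0.819 times (0.742 to 0.905) and RARS1 at 0.827 times (0.788 to 0.869). QARS1 was again level, at 1.03 times (0.968 to 1.09).

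Of the 15 measured mitochondrial enzymes, 14 had a ratio below 1 with polydatin (51.6% of all measured genes), and 9 had an interval below 1. MARS2 (chromosome 2, 197705369 to 197708387), level between control and DSS, was at 0.567 times DSS (0.487 to 0.657) and was the mitochondrial member past 1.5-fold. The glutamate enzyme EARS2 had 889 counts in control, 735 in DSS and 468 in polydatin plus DSS, 0.677 times DSS (0.601 to 0.761). Both treated libraries were below control for EARS2, the polydatin plus DSS library most. The leucine enzyme LARS2 had 714, 632 and 430 counts, 0.723 times DSS (0.638 to 0.818). The tryptophan enzyme WARS2 had 765, 650 and 459 counts, 0.750 times DSS (0.664 to 0.847). IARS2, the most abundant of the set, was at 0.703 times (0.671 to 0.737). The tyrosine enzyme YARS2 had 1137, 1100 and 787 counts, 0.760 times DSS (0.693 to 0.834). The alanine enzyme AARS2 at 0.994 times (0.888 to 1.11) and CARS2 at 0.980 times (0.892 to 1.08) were level. The single ratio above 1 was that of SARS2 at 1.41, with an interval from 0.900 to 2.22 that spanned 1.

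In pairs for the same amino acid, the cytosolic enzyme had the higher log2 ratio in 11 of 15 pairs and the lower in 3, with a difference that rounded to 0.00 for histidine, and the median difference was 0.32. The intervals were apart with the cytosolic enzyme higher in 9 pairs and with it lower in 1, that of phenylalanine. Methionine at 0.89 and tryptophan at 0.83 were the widest. For methionine, MARS1 was level with DSS while MARS2 was lower. For tryptophan, WARS1 was higher and WARS2 lower.

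**Figure D3:**
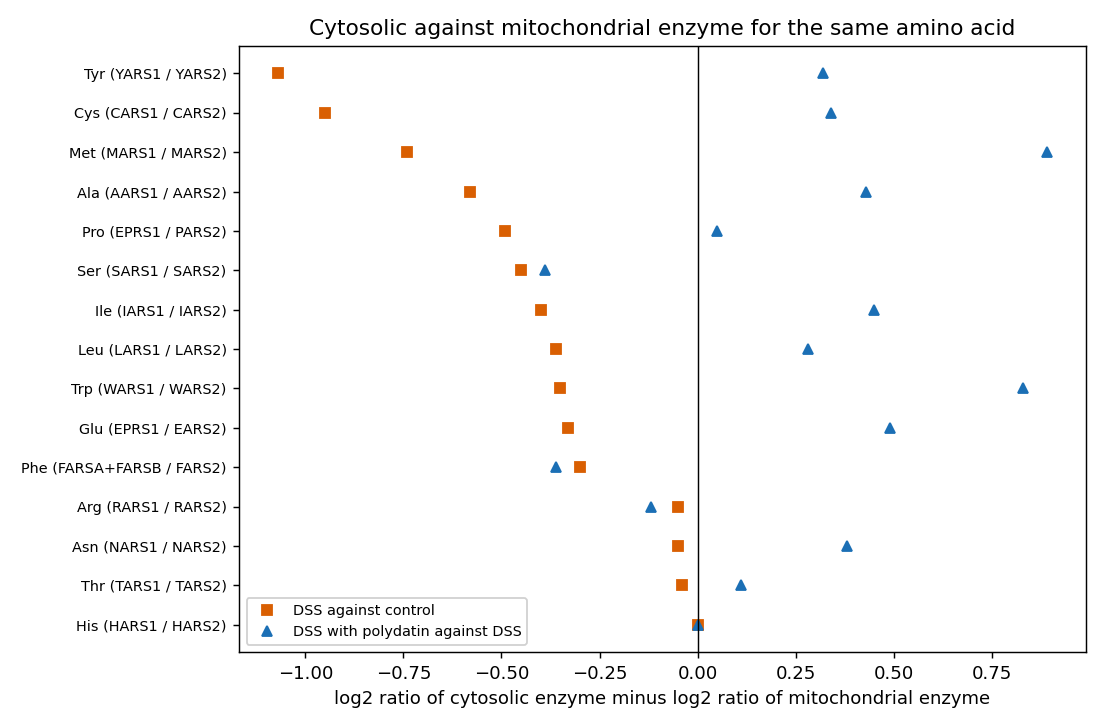
Difference between the log2 ratios of the cytosolic and the mitochondrial enzyme for the same amino acid in 15 pairs, squares for DSS against control and triangles for polydatin plus DSS against DSS. Squares lie at or left of 0, from −1.07 for tyrosine, and 11 of the triangles lie right of 0, up to 0.89 for methionine; both comparisons share the DSS library.

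Summed over each set, the counts gave a view that no scaling factor enters. Mitochondrial enzymes held 16303 of 100568 synthetase counts in control, a share of 16.2% (exact 95% interval 16.0 to 16.4). The share was 19.7% in DSS (19.4 to 20.0) and 16.7% in polydatin plus DSS (16.4 to 17.0). The DSS library thus stood above both others. After scaling, the cytosolic sum was 0.664 times control in DSS (0.657 to 0.671) and the mitochondrial sum 0.843 times (0.824 to 0.862). With polydatin, the cytosolic sum was 0.960 times DSS (0.949 to 0.972) and the mitochondrial sum 0.784 times (0.765 to 0.805). Without IARS2 the mitochondrial share was 11.2%, 14.3% and 12.5% in the same order. Against control, the polydatin plus DSS library had a cytosolic sum of 0.638 times (0.631 to 0.645) and a mitochondrial sum of 0.661 times (0.645 to 0.678), so that a share near that of control went with both sets lower.

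**Figure D4:**
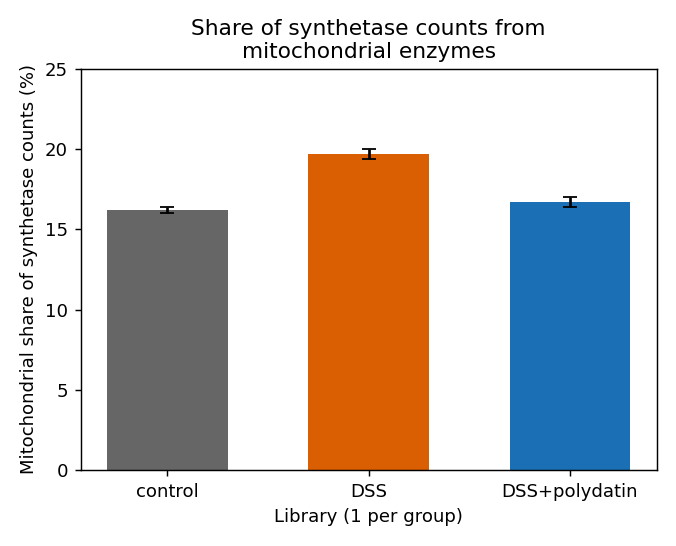
Share of synthetase counts that came from the 16 mitochondrial genes in each library, as a percentage, with bars starting at 0 and error bars for exact 95% counting intervals. The DSS bar at 19.7% stands above control at 16.2% and polydatin plus DSS at 16.7%.

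Polydatin plus DSS against control gives the combined distance from untreated cells. Here 18 of 34 measured synthetases were at least 1.5-fold lower and none was higher by as much, against 12.4% lower and 16.0% higher among all measured genes. The 18 were 11 of 19 cytosolic and 7 of 15 mitochondrial genes, and the medians of the sets were closer than in the other comparisons, at −0.66 and −0.52. FARSB was the lowest of the family at 0.349 times control (0.328 to 0.372), followed by YARS1 at 0.430 times (0.407 to 0.454). These 2 also passed the 2-fold rule, which 3.27% of all measured genes passed downward. The 7 mitochondrial genes were EARS2 at 0.548 times control (0.489 to 0.614), TARS2 at 0.549 times (0.493 to 0.610), IARS2 at 0.551 times (0.527 to 0.576), NARS2 and MARS2 both at 0.575 times, WARS2 at 0.625 times and LARS2 at 0.627 times. QARS1 at 1.03 times control (0.972 to 1.10) and CARS2 at 1.04 times (0.945 to 1.14) were level with control. With total-count scaling 14 of the 18 remained past 1.5-fold, and MARS1, SARS1, LARS2 and WARS2 did not. With the trend on GC content and length removed 16 remained, and EPRS1 and WARS2 did not.

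Membership of the multi-synthetase complex was set against these differences. In DSS against control 3 of 7 complex enzymes (EPRS1, IARS1 and MARS1) and 8 of 12 other cytosolic enzymes were lower by 1.5-fold (5.81% of all measured genes), with medians of −0.56 and −0.67. Of the 3 scaffold mRNAs none passed 1.5-fold in DSS, and AIMP2 and EEF1E1 were lower by 1.5-fold with polydatin against DSS (2.60% of all measured genes). AIMP2 had 603 counts in control, 583 in DSS and 364 in polydatin plus DSS, 0.948 times control in DSS (0.844 to 1.06) and 0.663 times DSS with polydatin (0.580 to 0.757). EEF1E1 had 338, 336 and 186 counts, with ratios of 0.974 (0.835 to 1.14) and 0.588 (0.489 to 0.706). AIMP1 had 2205, 1718 and 1282 counts, with ratios of 0.764 (0.717 to 0.814) and 0.793 (0.737 to 0.853). With polydatin against control all 3 scaffold mRNAs were lower by 1.5-fold (12.4% of all measured genes). By catalytic class the values were close. For class I enzymes, which share one fold of the catalytic domain, 5 of 17 measured were lower in DSS, and for class II enzymes 5 of 16, against 5.81% of all measured genes. EPRS1 carries a domain of each class and was left out of both.

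Genes of the ATF4 pathway were examined as neighbours of the family. ATF4 mRNA had 9657 counts in control, 8176 in DSS and 9478 in polydatin plus DSS. It was at 0.830 times control in DSS (0.806 to 0.855) and at 1.23 times DSS with polydatin (1.20 to 1.27), but ATF4 is regulated largely in translation, which mRNA counts do not show. Of 23 pathway genes 8 were lower and 1 higher in DSS, where 5.81% and 9.45% of all measured genes were. With polydatin 6 were higher than in DSS and none lower, where 5.39% and 2.60% of all measured genes were. The serine synthesis gene PSAT1 and the glutathione-degrading CHAC1 were lowest in DSS, at 0.287 (0.269 to 0.306) and 0.249 times control (0.180 to 0.339). With polydatin CHAC1 was at 3.19 times DSS (2.32 to 4.45), the cystine importer SLC7A11 at 1.74 times (1.63 to 1.85) and the pseudokinase gene TRIB3 at 1.59 times. TRIB3 was already above control in DSS, at 1.15 times (1.08 to 1.23). The gene higher in DSS was PPP1R15A, at 1.55 times control (1.42 to 1.70) and at 1.93 times with polydatin. ASNS had only 61, 20 and 41 counts, 0.321 times control in DSS and 2.18 times DSS with polydatin. In DSS 17 of the 23 genes were below control and 6 above, where 50.5% of all measured genes were below. With polydatin 16 were above DSS and 7 below, where 51.6% of all measured genes were below. Against control 8 of the 23 were lower by 1.5-fold with polydatin and 3 higher, where 12.4% and 16.0% of all measured genes were. SLC7A11 was then at 0.639 times control. PSAT1 was at 1.21 times DSS with polydatin and at 0.346 times control. DDIT3 was at 0.812 times control in DSS (0.683 to 0.965) and at 1.45 times DSS with polydatin (1.22 to 1.71). EIF2AK4, the kinase that senses uncharged transfer RNA, had 1713, 1385 and 1090 counts, stepping down through the 3 libraries. The part of ATF4 in the synthetase differences was not tested.

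Partners of mitochondrial charging and translation differed by small amounts, mostly downward, in the 2 comparisons that share the DSS library. With polydatin against control the median log2 ratio was −0.43. There GFM1 at 0.647 times and MTIF2 at 0.667 times control were lower by 1.5-fold (12.4% of all measured genes). Of 12 measured genes, none passed 1.5-fold in DSS against control or with polydatin against DSS, and the median log2 ratio was −0.21 in each. Over all measured genes 5.81% were lower and 9.45% higher in DSS, and 2.60% lower and 5.39% higher with polydatin against DSS. All 12 of these partners had a ratio below 1 with polydatin against DSS, as did 51.6% of all measured genes. The mitochondrial elongation factor gene GFM1 was at 0.761 times DSS (0.715 to 0.809) and TUFM, which brings charged transfer RNA to the mitochondrial ribosome, at 0.819 times (0.773 to 0.867). QRSL1, GATB and GATC encode the amidotransferase that makes mitochondrial glutaminyl-tRNA in place of a glutamine synthetase, and were at 0.855, 0.823 and 0.870 times DSS. Transfer RNA maturation genes had 2 of 14 lower with polydatin against DSS (2.60% of all measured genes), the RNase P subunit gene RPP40 at 0.607 times DSS (0.488 to 0.753) and the mitochondrial methyltransferase gene TRMT10C at 0.654 times (0.598 to 0.716). In DSS none of the 14 was lower (5.81% of all measured genes). With polydatin against control 3 of the 14 were (12.4% of all measured genes), RPP40 at 0.444 times control among them. Among 7 genes of charging quality control and selenocysteine synthesis, DTD1, which removes D-amino acids from transfer RNA, was at 0.621 times control in DSS. It had 224 counts in control and 142 in DSS. No member passed with polydatin against DSS. With polydatin against control 2 of the 7, DTD1 and DTD2, were lower (12.4% of all measured genes). Of 5 measured cytosolic elongation factor genes none was lower in DSS (5.81% of all measured genes). EEF1A2 was higher (9.45% of all measured genes), at 2.01 times control (1.67 to 2.44). EEF1A1, the abundant factor that delivers charged transfer RNA to the ribosome, was at 1.26 times control and EEF2 at 1.08 times (1.06 to 1.09).

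**Figure D5:**
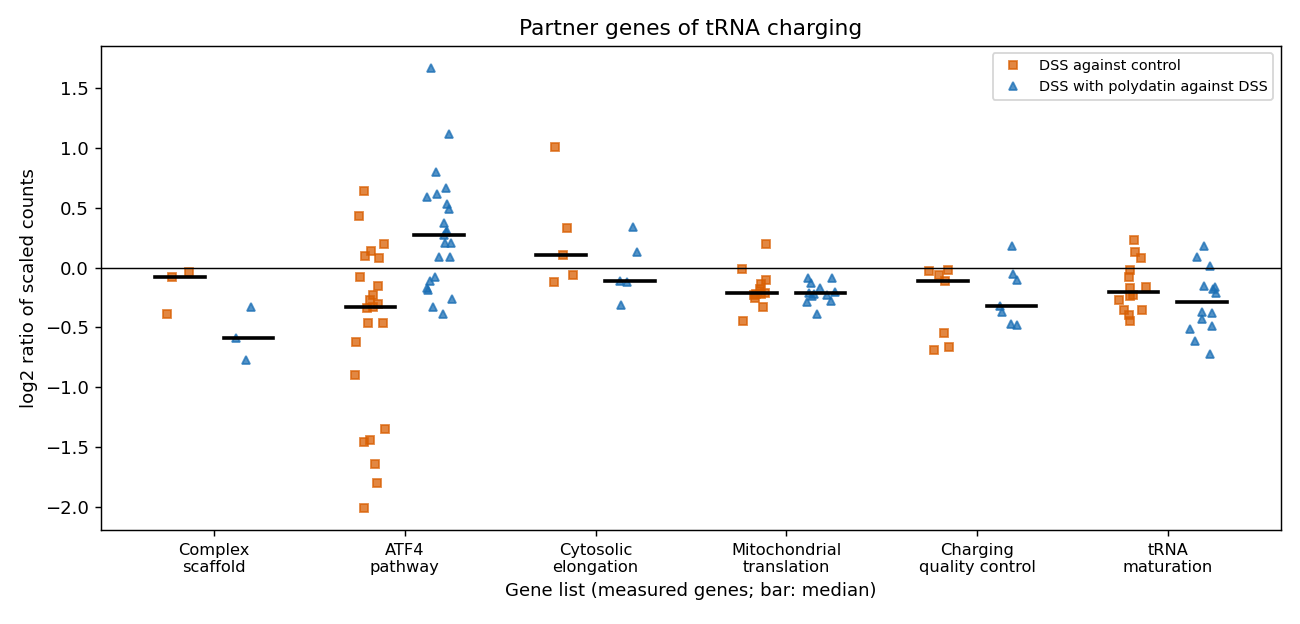
Log2 ratios of measured partner genes in 6 lists, squares for DSS against control and triangles for polydatin plus DSS against DSS, with a bar at the median of each. The ATF4 pathway has medians of −0.33 and 0.27, while the medians of mitochondrial translation are −0.21 in both comparisons, which share the DSS library.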

How the data were processed

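Total RNA of Caco-2 cells was extracted with Trizol and sequenced from VAHTS Universal V6 libraries, per the labels' protocols. Reads were aligned with HISAT2 to GRCh38, per the submitters' processing notes. The counting program, annotation and strand setting are not stated in the sources. The authors deposited counts per Ensembl gene, taken as raw since they are whole numbers with unequal totals. Symbols were matched for 60463 of 60664 identifiers. Positions, exon lengths, GC content and overlaps came from GENCODE release 29 (GRCh38), and promoters from RefSeq.

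Scaling used TMM factors (edgeR 4.0.16, R 4.3.3) of 0.971 for control, 0.984 for DSS and 1.05 for polydatin plus DSS. One CPM was 18.2, 18.5 and 17.4 counts, and 3 counts were 0.165, 0.162 and 0.172 CPM. Ratios and exact intervals were computed in Python 3.11.15 with scipy 1.17.1, with 0.5 added to both counts where either was 0. The script was tested on simulated data. Intervals cover counting error only. No molecular identifiers are described, so duplicate reads could not be told from separate molecules. The intervals may therefore be too narrow even for that error. No p-value is given, since no group has a replicate. Members and lists, the 12 ATF4-described genes included, were chosen with earlier results of these data known. Values in all libraries are given for members past 1.5-fold in a comparison and for the extremes of each set, other members by ratio, range or count; of the partner lists, the scaffold genes, ATF4, DDIT3 and up to 4 members a list with the interval bound farthest from 1, with others named after their values were seen. Alternatives were size factors from DESeq2 1.42.0, scaling by total counts, other CPM filters (none, 10), other fold rules (2, and 5 to 4), thinning, 2 added counts, removal of a trend on GC content and length (statsmodels 0.14.6), and other list summaries. Figures were drawn with matplotlib 3.10.9.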

Additional observations from a re-analysis of the deposited data

How the results depend on the processing

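All 11 synthetases lower in DSS than in control were kept under total-count scaling and DESeq2 size factors, and 9 after removal of the trend on GC content and length. Both other CPM filters, thinning and 2 added counts also kept all 11. These last settings have little room to change genes with so many counts, the fewest being 900 for WARS1 in DSS. By a 2-fold rule the numbers lower were 1 for DSS against control, 0 for polydatin plus DSS against DSS and 2 for polydatin plus DSS against control. By a rule with a ratio of 5 to 4, 10 were lower and 2 higher, AARS1 and WARS1, with polydatin against DSS. Total-count scaling moved the median of all measured genes to 0.08 with polydatin against DSS and to 0.09 against control, and the cytosolic medians to 0.01 and −0.55. For DSS against control the cytosolic median was −0.54 after removal of that trend and the cytosolic mean −0.53. The mitochondrial share differed by 3.51 percentage points for DSS against control, −3.00 with polydatin against DSS and 0.50 with polydatin against control. Per kilobase the first 2 were 3.96 and −3.46. By geometric means the 3 were 2.66, −1.32 and 1.34, and without IARS2 3.05, −1.78 and 1.27. Leaving out IARS2 was chosen after seeing the data. No paired analysis was possible because each group has 1 library. At its depth VARS2 gave no usable ratio, and the interval of SARS2 spanned 1 in each comparison.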

Other observations

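TARS3, a cytosolic relative of TARS1 that is not among the 35 genes and was named after its values were seen, had 317 counts in control, 310 in DSS and 210 in polydatin plus DSS and was at 0.958 times control in DSS (0.817 to 1.12).

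Within libraries, MARS1 had 9.10 counts for each MARS2 count in control (8.29 to 10.0), 5.45 in DSS and 10.1 in polydatin plus DSS (8.94 to 11.5). IARS1 had 1.22 for each IARS2 count in control (1.18 to 1.27), 0.927 in DSS (0.889 to 0.967) and 1.27 in polydatin plus DSS (1.21 to 1.33). In both pairs the DSS library stands apart from the other 2, and a trait of that library cannot be told apart from an effect of DSS. Not all pairs were like these 2. With polydatin against control, the log2 ratio was lower for the cytosolic enzyme in 8 of 15 pairs and higher in 6. The intervals were apart with it lower in 5 pairs and with it higher in 2. For tyrosine the difference was −0.75, and for cysteine −0.61.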
